A study of Mus musculus with 24 samples.

Results

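The beta chain V segments (Trbv) of the T cell receptor were followed in T cells from subcutaneous Panc02 tumors, a mouse pancreatic cancer line grown in male C57BL/6 mice. Members were all 35 rows of the RNA count matrix whose symbol starts with Trbv, of 32285 rows in all, read in 14544 *Cd3e*-positive cells of 57358 cells that passed the limits. They were set against the TRBV segment of the TRB contigs, the assembled beta chains, of 7937 cells in the 8 Percoll libraries. There were 16 RNA libraries, a pair for each of 8 treatments, 1 made from the whole tumor suspension and 1 after a Percoll gradient had enriched the immune cells. Wild-type mice received PancVAX (with isotype antibodies by the study's methods), PancVAX + Anti-PD-1, PancVAX + Anti-CTLA-4 or all 3 agents, or, without the vaccine, Isotype Control, Anti-PD-1, Anti-CTLA-4 or Anti-PD-1 + Anti-CTLA-4. By the labels, PancVAX peptides (50 ug, per peptide by the methods) were given on days 12 and 19, anti-PD-1 (100 ug) from day 12, anti-CTLA-4 (100 ug) on days 15 and 22, and by the methods tumors were taken on day 38. Another place in the study gives other days for the second anti-CTLA-4 dose and the harvest. The vaccine also held an oil-in-water adjuvant and a STING agonist, so that an effect of PancVAX joins peptides and adjuvants. Tumors of a treatment were pooled before the libraries were made, so that a pool of mice, here the sum of both libraries of a treatment, is the unit of comparison and mice cannot be told apart. No source used here says whether both libraries hold the same mice, and the preparations are also the 2 sequencing batches. In all values below, pools with the vaccine are given in the order PancVAX, PancVAX + Anti-PD-1, PancVAX + Anti-CTLA-4, then PancVAX + Anti-PD-1 + Anti-CTLA-4, and pools without it in the order Isotype Control, Anti-PD-1, Anti-CTLA-4 and Anti-PD-1 + Anti-CTLA-4.

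A beta chain gene is built in the developing thymocyte by joining a V segment to a D and a J segment, and nearly every αβ T cell then makes 1 beta chain. The V segment encodes the part of the receptor that mostly touches the MHC molecule, whereas the joint forms the third complementarity-determining region (CDR3), which meets the peptide. T cells that descend from 1 cell share the joint to the base, although cells that do not can by chance carry the same joint. Any V segment can serve CD8+ cells, which read MHC class I, and CD4+ cells, which read class II, but thymic selection does not use each segment alike in both.

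The joints of the largest clone of each of the 8 Percoll libraries are printed first, because some segment levels below rested in part on such clones. With them are 3 further clones of TRBV5 and TRBV16, chosen after their values were seen. Other clones of similar size are not printed. A clone was the cells of 1 library with the same TRBV name and the same CDR3 bases, whatever their alpha chain, and in 25 of 3415 clones with an alpha chain some cells had TRAJ7 and others did not. Capitals mark the middle bases, those between the start shared by at least 70% of the clones of that V segment and the end shared by at least 70% of the clones of that J segment. Each of the 5 TRBV5 joints holds, in frame, a CCN codon followed by a GGN codon (N is any base).
TRBV5 with TRBJ2-3, Anti-CTLA-4, 91 cells: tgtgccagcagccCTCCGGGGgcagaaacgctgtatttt
TRBV5 with TRBJ2-3, Anti-CTLA-4, 32 cells: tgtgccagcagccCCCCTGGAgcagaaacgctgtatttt
TRBV5 with TRBJ1-1, Anti-PD-1 + Anti-CTLA-4, 80 cells: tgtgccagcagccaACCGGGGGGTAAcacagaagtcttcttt
TRBV5 with TRBJ1-4, PancVAX + Anti-PD-1, 36 cells: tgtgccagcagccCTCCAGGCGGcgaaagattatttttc
TRBV5 with TRBJ2-2, PancVAX, 16 cells: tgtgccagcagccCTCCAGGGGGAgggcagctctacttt
TRBV20 with TRBJ1-1, PancVAX + Anti-PD-1 + Anti-CTLA-4, 113 cells: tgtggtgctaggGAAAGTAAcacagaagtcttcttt
TRBV13-1 with TRBJ1-6, Anti-PD-1, 67 cells: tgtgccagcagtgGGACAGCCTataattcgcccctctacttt
TRBV16 with TRBJ2-7, Anti-PD-1 + Anti-CTLA-4, 71 cells: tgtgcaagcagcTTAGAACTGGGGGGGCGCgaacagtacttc
TRBV16 with TRBJ2-3, Isotype Control, 22 cells: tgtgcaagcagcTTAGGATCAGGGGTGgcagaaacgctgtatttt
TRBV16 with TRBJ2-5, PancVAX + Anti-CTLA-4, 31 cells: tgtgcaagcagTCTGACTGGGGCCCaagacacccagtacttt
TRBV26 with TRBJ1-1, PancVAX + Anti-PD-1, 45 cells: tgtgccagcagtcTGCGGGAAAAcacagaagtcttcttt
None of the printed joints of the other segments holds the CCN GGN pair. The first and the second TRBV5 joint, both of the Anti-CTLA-4 library, differ in their middle bases and encode the same CDR3 protein, and together counted 123 cells. Of the RNA cells of these clones, all that could be assigned were CD8+, with 0 CD4+ cells among them.

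Of the other T cell markers, *Cd3g* had a UMI in 88.8% of the *Cd3e*-positive cells and *Cd3d* in 87.1%. The remaining T cell markers were found less often, from 25.97% (*Trbc1*) to 63.0% (*Cd2*). The B cell genes *Cd79a* and *Cd79b* were found in 0.777% and 2.48%. *Lyz2*, a macrophage or monocyte marker, was found in 16.6%, and *Krt18*, a tumor or epithelial marker, in 12.4%. Libraries held 373–1937 *Cd3e*-positive cells with a median of 3065–4719 UMIs (unique RNA molecules) per cell. A Trbv UMI was found in 69.8–85.1% of these cells per library, and in 42.7–60.0% after each cell was thinned to 1000 UMIs. In cells with UMIs of at least 2 macrophage or monocyte markers and none of the CD3 and constant receptor genes, which should lack beta chain RNA, the share was 0.177–2.95% at a median depth of 2805–5037 UMIs. Over 132035 barcodes, 9.20% were used in more than 1 library, and of 31 barcodes shared between contig libraries 0 had the same beta chain. Libraries with PancVAX were shallower (mean of the median depth 3418 against 4387 UMIs). Their T cell marker RNA summed to 33.6–47.6 per 10000 UMIs against 46.8–55.1. RNA of the γδ T cell marker list summed to 0.365–0.695 against 1.44–1.71, and that of the NK cell list to 0.445–0.907 against 1.24–1.90. Macrophage RNA was 1.71–12.1 against 2.74–5.45, and tumor or epithelial RNA 0.546–4.95 against 0.234–0.987. In the γδ T and NK lists *Tcrg-C2* was in 15.1% and *Klre1* in 20.2% of the *Cd3e*-positive cells, and the other markers in at most 3.45%. Both were more frequent in cells where 1 Trbv row had the most UMIs (16.4% and 22.2%) than in cells without a Trbv UMI (11.1% and 13.2%). The reverse held for *Trdc* (0.729% and 3.73%) and *Ncr1* (0.319% and 0.678%). The sums of these 2 lists therefore do not count γδ T or NK cells. *Trdc* and *Ncr1* alone were also less frequent with PancVAX. Per library, *Trdc* was in 0.473–1.56% of the *Cd3e*-positive cells with PancVAX and in 1.53–3.06% without it (means 1.01% and 2.24%). *Ncr1* was in 0–0.512% and 0.503–0.969% (means 0.221% and 0.776%), and both ranges overlapped narrowly. Doublets were not called, and 13.1–36.5% of the *Cd3e*-positive cells of a library held at least 2 UMIs of markers of other cell types.

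Of the 35 rows, 25 had a UMI in *Cd3e*-positive cells and 23 led a cell, that is, had more UMIs than any other Trbv row in it. All rows lie on chromosome 6 (RefSeq, GRCm38.p6), from Trbv1 at 40891296–40891885 to Trbv31 at 41557693–41558371, which lies beyond the D, J and C segments. RefSeq lists 22 of the rows as V segments and 13 as V pseudogenes. Of the pseudogenes, 11 led no cell and Trbv22 led 2. Trbv29, the other, led 445 cells and was the contig segment of 173 cells with RNA. Trbv21, listed as a V segment, had 9 UMIs and led 0 cells. Cells with UMIs of at least 2 Trbv rows made up 14.9% (2166 cells). The pair seen most often was Trbv12-2 with Trbv13-2, in 254 cells, followed by Trbv13-2 with Trbv16 in 207 and Trbv13-2 with Trbv13-3 in 172, whereas the median over 217 pairs was 6 cells. Trbv12-2 and Trbv13-2 are neighbors on the chromosome, and the contig caller gave 356 RNA-matched cells a joined name of just these segments, of which 335 were led by Trbv13-2. Pairs of rows in a cell were examined after their counts were seen. A V segment with a near copy, or next to the one used, can share reads with it. Trbv13-2 and Trbv16 have other Trbv rows between them, and the cause of the pairs was not tested.

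By RNA, Trbv13-1 and Trbv16 led the most cells. Trbv13-1 led 11.1% ± 3.61 (SD, n = 16 libraries; range 7.14–19.8%) of the cells with a leading segment, and Trbv16 led 10.6% ± 3.00 (6.71–18.2%). Trbv19 (7.56%), Trbv13-2 (7.27%), Trbv12-2 (6.21%), Trbv26 (6.20%), Trbv13-3 (5.34%) and Trbv3 (5.20%) followed, and these 8 segments held 59.5% together. Neighbors in this order differed by less than their SD over libraries, except Trbv16 and Trbv19, whose ranges overlapped. The remaining segments lay between 0.0116% (Trbv22) and 4.77% (Trbv12-1). The widest spread relative to its mean among the leading 8 was that of Trbv12-2, from 1.59% to 12.6%.

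**Figure D1:**
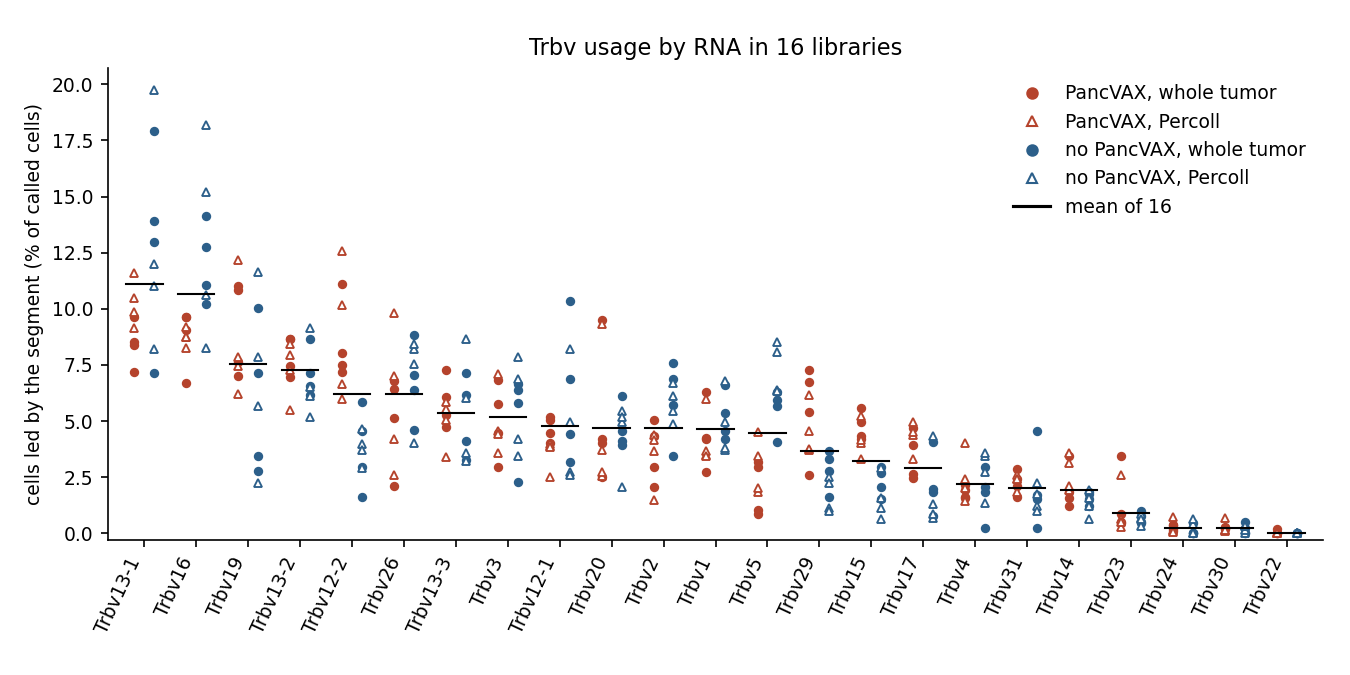
Share of cells led by each Trbv segment (y axis, % of cells with a leading segment) in 16 RNA libraries, ordered by the mean (black line). Red marks are libraries with PancVAX and blue marks those without, circles are whole tumor and open triangles Percoll. Trbv13-1 reached 19.8% in the Anti-PD-1 Percoll library against a mean of 11.1%.

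Both preparations of a pool were alike in segment usage. For each whole-tumor library, the Percoll library with the smallest summed difference in segment shares was that of the same treatment in 8 of 8 cases. The summed difference was 16.4–30.0 percentage points to the own Percoll library and 27.5–67.1 to the libraries of other treatments. Pearson's r over the segments was 0.916–0.974 with the own library, against a median of 0.823 with the others. These are descriptions over segments that share libraries, and carry no test.

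To ask whether RNA read the right segment, the leading Trbv row was compared with the contig of the same cell. It bore the same name in 4802 of 5031 cells, or 95.2% ± 1.06 (SD, n = 8 Percoll libraries). The libraries with PancVAX gave 93.3%, 96.3%, 95.6% and 96.2%, and those without gave 94.3%, 95.7%, 94.5% and 95.8%. The ranges overlapped, and the difference of 0.234 percentage points was within the spread between libraries (exact permutation test, two-sided, p = 0.8 over 70 splits). With at least 2 UMIs of the leading row, agreement was 96.3–97.9% with PancVAX and 94.8–97.1% without it. The difference was then 1.44 percentage points (same permutation test, p = 0.0571). Much of the disagreement was 1 name. Cells with a TRBV10 contig were led by Trbv4 in 130 of 144 cases, and RefSeq gives Tcrb-V10 as an older name of Trbv4, while the Trbv10 row is a pseudogene with 1 UMI. With TRBV10 read as Trbv4, and the joined name as Trbv13-2, agreement was 98.1% ± 0.564 over 5369 cells. This reading was chosen after the cells were seen, and contig shares from here on use it.

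Trbv5 was the exception, in that its RNA row missed most of its cells. By contig it was the most used segment, with 12.3% ± 6.23 of cells (SD, n = 8), but by RNA it held 5.14% ± 2.59 and ranked ninth, and it was lower by RNA in 8 of 8 libraries. These shares rest on different sets of cells. The contig share counts all 7937 cells with a TRB contig, and the RNA share only *Cd3e*-positive cells with a leading segment. Among the 5969 contig cells that were *Cd3e*-positive and passed the limits, 671 were TRBV5. A UMI of the Trbv5 row was found in 45.5% of 671 TRBV5 contig cells. Per library this was 46.3%, 65.5%, 48.3% and 29.3% with PancVAX and 58.0%, 51.3%, 37.1% and 43.1% without it, and the ranges overlapped. For the other segments apart from Trbv4 the own row was found in 98.1% of 5083 cells (library range 97.0–99.2%), and for Trbv4 in 67.0% of 215. In TRBV5 cells the beta constant genes (*Trbc1* and *Trbc2*) had 2.06 UMIs per cell against 1.62 in cells of the other segments, and the beta contig had a median of 7 UMIs against 8. These counts are not scaled to depth, and TRBV5 cells had a median of 4965 UMIs of all genes, against 4232 in all contig cells. The Trbv5 row itself had 0.714 UMIs per cell against 5.98 for the own row of the other segments, as UMIs of a 5′ kit not divided by length. Of 483 contig cells with no Trbv UMI at all, 339 (70.2%) were TRBV5 and 63 were Trbv4. The cause was not tested. Trbv5 values by RNA below therefore count a part of the TRBV5 cells.

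Between the other segments, RNA and contigs gave nearly the same order. The next largest differences in mean share were those of Trbv19 (7.64% by RNA, 6.48% by contig), Trbv13-1 (11.5% and 10.5%) and Trbv1 (4.48% and 3.65%). Within a library, Pearson's r across 21 segments was 0.692–0.959, and without Trbv5 it was 0.941–0.992. *Cd3e*-positive cells of the Percoll libraries without a contig had a Trbv UMI in 36.8% of cases (1882 cells, median depth 3123 UMIs) against 91.9% with one (5969 cells, 4232 UMIs), and 4.41% against 0.436% of them had a UMI of *Trdc*, the δ chain constant gene.

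**Figure D2:**
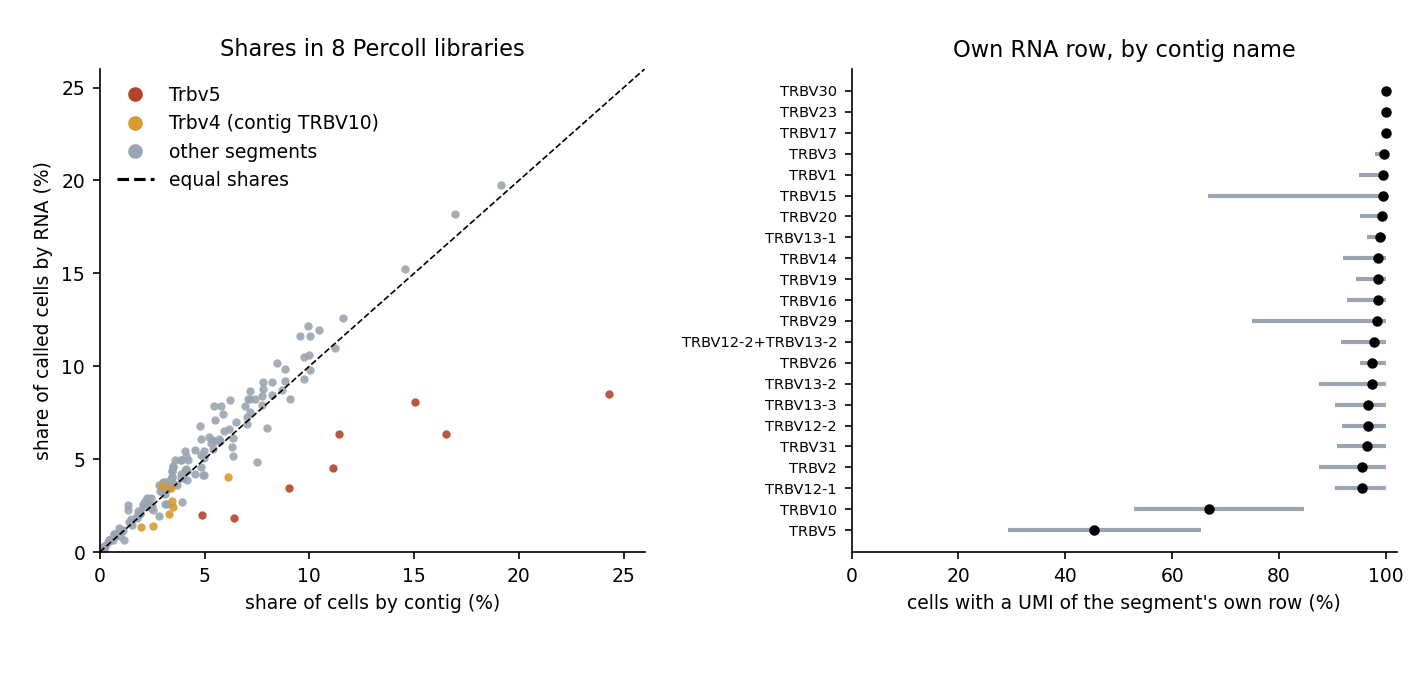
Left, the share of each segment by contig (x axis, %) and by RNA (y axis, %) in each of 8 Percoll libraries, with the line of equal shares. Right, the share of cells with a UMI of the row of their own segment (x axis, %) for each contig name, with points for all cells and bars for the range over libraries. Trbv5 (red) lies under the line in 8 of 8 libraries, and its own row was found in 45.5% of cells.

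The RNA of 6 segments differed between the pools with and without PancVAX by edgeR. The fit across all 11373 genes called 810 (7.12%) at an adjusted p under 0.05 and a log2 change over 0.5, and 6 of the 22 Trbv rows that passed its filter on low counts. Trbv5 and Trbv16 fell, and Trbv14, Trbv15, Trbv29 and Trbv31 rose. The median log2 change of the 22 rows was 0.09, against 0.01 for all genes, and the median of its absolute value was 0.60 against 0.19. All p-values in this and the following paragraphs are from the edgeR quasi-likelihood test with Benjamini-Hochberg adjustment over all genes tested. Values of Trbv RNA are CPM, the UMIs of a row scaled by edgeR to the UMIs of all genes in the *Cd3e*-positive cells of the pool, so that fewer αβ T cells among them and less RNA per cell cannot be told apart.

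Trbv5 RNA stood at 11.2, 12.4, 5.59 and 3.81 CPM with PancVAX and at 23.7, 18.7, 18.3 and 16.2 CPM without it. Each pool with the vaccine lay under each pool without. The log2 change was −1.30 (SE 0.227, adjusted p = 0.0094), and without the PancVAX + Anti-CTLA-4 pool it was −1.22 (adjusted p = 0.0505). With no upper limit on genes and UMIs per cell the call was also lost (−0.71, adjusted p = 0.282), as was that of Trbv16 (−0.88, adjusted p = 0.137). By contigs TRBV5 took 11.2%, 9.02%, 4.87% and 6.42% of cells with PancVAX and 15.0%, 11.4%, 24.3% and 16.5% without it, again without overlap, although PancVAX and Anti-PD-1 were nearly level. With the largest TRBV5 clone of each library left out, the groups overlapped narrowly, at 3.86–9.38% and 9.31–16.3%. The share of TRBV5 contig cells in which the Trbv5 row was found was lowest, at 29.3%, in the PancVAX + Anti-PD-1 + Anti-CTLA-4 library, which also had the lowest Trbv5 RNA.

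Trbv16 RNA was 96.2, 72.9, 82.0 and 112 CPM with PancVAX and 179, 123, 114 and 245 CPM without it. The highest pool with the vaccine and the lowest without were nearly level, and Anti-PD-1 + Anti-CTLA-4 was the highest of all. The log2 change was −0.86 (SE 0.239, adjusted p = 0.0492), and with 1 pool left out it lay between −1.06 and −0.58 and lost its call in 6 of 8 cases. The smallest was that without the Anti-PD-1 + Anti-CTLA-4 pool (adjusted p = 0.165), and the call was kept without Anti-PD-1 or Anti-CTLA-4. The call was also lost in Percoll libraries alone (−0.91, adjusted p = 0.0993) and kept in whole-tumor libraries alone (−0.79, adjusted p = 0.0345). By contig cells the groups overlapped, with 7.79–9.07% against 7.39–17.0%.

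Trbv15 RNA was 72.3, 80.4, 61.8 and 83.6 CPM with PancVAX and 29.8, 65.4, 16.0 and 27.4 CPM without it. Only the Anti-PD-1 pool reached into the range of the pools with vaccine. The log2 change was 1.24 (SE 0.230, adjusted p = 0.0118), and the call was lost without the Anti-PD-1 + Anti-CTLA-4 pool (1.13, adjusted p = 0.0537) or the Isotype Control pool (1.22, adjusted p = 0.0522). As a share of cells the groups did not overlap in RNA (3.88–5.11% against 1.48–2.83%) or in contigs (3.01–4.90% against 1.05–2.42%).

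Trbv29 RNA was 37.7, 40.2, 77.1 and 34.6 CPM with PancVAX and 14.2, 23.0, 12.2 and 22.8 CPM without it. The groups did not overlap, and PancVAX + Anti-CTLA-4 was the highest pool. The log2 change was 1.36 (SE 0.313, adjusted p = 0.0256). It lost its call without Anti-CTLA-4 (1.08, adjusted p = 0.0721), Anti-PD-1 + Anti-CTLA-4 (1.48, adjusted p = 0.0677) or Isotype Control (1.26, adjusted p = 0.101). The call was also lost in Percoll libraries alone (1.51, adjusted p = 0.0652) and kept in whole-tumor libraries alone (1.21, adjusted p = 0.0397). By contigs Trbv29 took 3.06–6.37% of cells with the vaccine and 0.683–1.82% without it. By clones the ranges overlapped, with 3.22–4.48% and 1.20–3.77%. A clone of 24 cells was 43.6% of the Trbv29 contig cells of the PancVAX + Anti-CTLA-4 library.

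Trbv14 and Trbv31 rose by less. Trbv14 RNA was 16.1–28.4 CPM with PancVAX and 11.8–16.5 CPM without it (log2 change 0.69, SE 0.193, adjusted p = 0.0493), and Trbv31 RNA 16.0–23.0 and 9.46–19.6 CPM (0.61, SE 0.165, adjusted p = 0.0459). In both the ranges overlapped. With 1 pool left out, the call of Trbv14 was kept in 1 of 8 cases (without PancVAX + Anti-PD-1 + Anti-CTLA-4), with log2 changes of 0.52–0.90. That of Trbv31 was kept in 3 of 8, without Isotype Control, PancVAX or PancVAX + Anti-PD-1, with log2 changes of 0.49–0.79. By contig cells both were without overlap, with 1.93–3.69% against 0.456–1.79% for Trbv14 and 1.80–2.46% against 0.683–1.47% for Trbv31. By clones both overlapped, with 2.80–3.79% against 0.803–3.02% and 2.76–3.36% against 0.803–3.26%. Neither was called in Percoll or in whole-tumor libraries alone (adjusted p = 0.0852 and 0.27 for Trbv14, 0.0968 and 0.298 for Trbv31).

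Trbv12-2 did not pass the test in RNA (log2 change 0.61, SE 0.316, adjusted p = 0.24). Its share of cells was nevertheless without overlap, at 8.89%, 6.89%, 11.8% and 6.86% with PancVAX and 2.14%, 3.94%, 4.53% and 4.17% without it, and by contigs at 5.74–11.6% and 2.28–3.98%. Over all genes tested, the CPM of pools with and without PancVAX did not overlap for 22.3%, and over 144 V and J names of alpha and beta contigs the shares did not overlap for 14.6%. Against these, 3 of 22 Trbv rows were without overlap in CPM (Trbv5, Trbv16 and Trbv29), and 6 of 21 TRBV segments in contig cells (Trbv5 lower, and Trbv12-2, Trbv14, Trbv15, Trbv29 and Trbv31 higher).

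**Figure D3:**
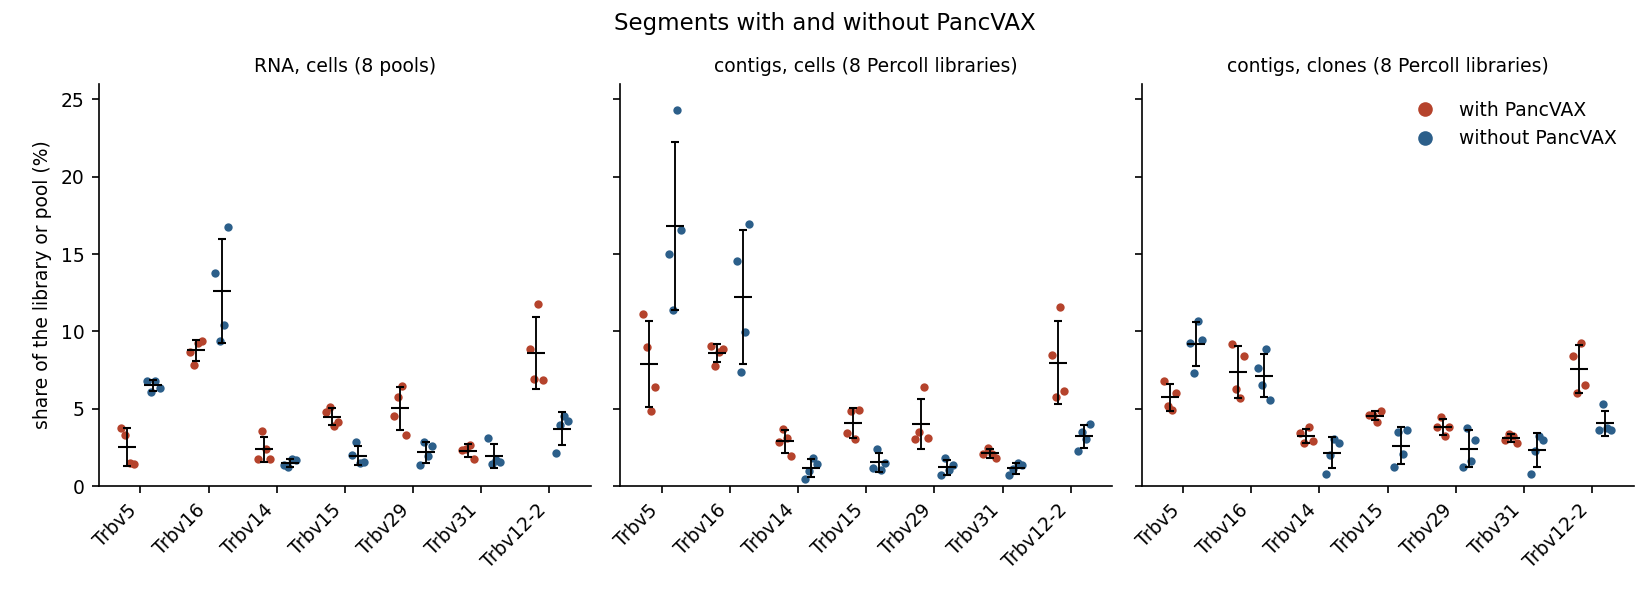
Share (y axis, %) of 7 segments in 4 pools or libraries with PancVAX (red) and 4 without (blue), by cells in RNA, by cells in contigs and by clones in contigs. Points are pools or libraries and bars the mean ± SD. Trbv15 and Trbv12-2 were higher with PancVAX without overlap in each panel, whereas Trbv16 had means of 7.39% and 7.14% when each clone was counted once.

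Other genes of the receptor were read in the same fit. Of 16 genes of the receptor complex and its signaling, 4 fell with PancVAX, 0 rose, and the median log2 change was −0.17. These were *Trbc1* (−0.84) and *Trbc2* (−0.51), the beta chain constant genes, *Cd3g* (−0.60), a CD3 chain, and *Cd8a* (−0.64), a chain of the CD8 coreceptor (adjusted p = 0.00409, 0.0025, 0.00409 and 0.0207). Of 51 alpha chain V rows tested (Trav), 5 rose and 0 fell, a share near the 7.12% of all genes. The matrix has 0 rows of Trbj or Trbd. CD4+ cells were 10.7%, 12.4%, 14.6% and 11.6% of the subset cells in pools with PancVAX and 11.1%, 11.7%, 7.63% and 9.19% in pools without it. The part of these differences, and of the lower T cell marker levels and depth, in the segment results was not tested.

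Within CD8+ cells alone, edgeR called 5 of 21 Trbv rows, against 10.7% of all genes: Trbv5 (−1.15) and Trbv16 (−0.86) fell, and Trbv15 (1.09), Trbv29 (1.74) and Trbv31 (0.82) rose. Trbv14 rose by 0.81 with adjusted p = 0.0541. Within CD4+ cells, edgeR called 1.4% of 5448 genes and 0 of 13 Trbv rows, with 2 at an unadjusted p under 0.05. Trbv15 was 1.36 (SE 0.393, adjusted p = 0.12) there. Whether the effect differs between the subsets was not tested. With the sum of Trbv UMIs as the library size, which reads usage among segments only, Trbv5 (−1.21), Trbv15 (1.35), Trbv29 (1.49) and Trbv31 (0.70) were called, 4 of 22 rows against 5.08% of all genes.

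The antibodies gave no call. In the same edgeR fit, anti-PD-1 and anti-CTLA-4 each called 0 of 11373 genes (0%), with 323 and 379 genes at an unadjusted p under 0.05, of which 4 and 3 were Trbv rows. DESeq2 called 2 genes and 0 genes, and no Trbv row. The median absolute log2 change of the Trbv rows was 0.29 and 0.26, against 0.09 for all genes in both. Trbv13-1 in the Anti-PD-1 pool was at 251 CPM against 78.6–160 CPM in the other pools without vaccine. It was also the segment of the largest clone of the Anti-PD-1 Percoll library, described below.

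CD8+ and CD4+ T cells of the same pools used different segments. Cells with a UMI of *Cd8a* or *Cd8b1* and none of *Cd4* were taken as CD8+ (10259 cells), and the reverse as CD4+ (1317 cells). A *Cd4* UMI was found in 10.4% of *Cd3e*-positive cells and in 7.39% of the macrophage or monocyte cells used as background, against 60.8% and 0.956% for *Cd8a*, and the part of RNA from other cells in the CD4+ class was not tested. A Trbv UMI was found in 82.1% and 83.3% of them, at a median depth of 4005 and 3465 UMIs. Over all genes edgeR, with the pool as a block, called 1386 of 9302 (14.9%), and 13 of 20 Trbv rows. Of these 7 were higher in CD8+ cells and 6 in CD4+ cells, and the median absolute log2 difference was 1.17 against 0.22 for all genes. Trbv13-1, Trbv19 and Trbv26 were among the 7 rows that did not pass.

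Trbv31 leaned most to CD4+ cells in this fit (log2 difference, CD8+ over CD4+, −2.09, SE 0.222, adjusted p = 1.01e-06). Over 23 alternatives Trbv31 was −2.27 to −1.65 and Trbv1 −2.14 to −1.31. Trbv31 led 1.53%, 1.42%, 1.35% and 0.966% of CD8+ cells with PancVAX and 1.45%, 0.676%, 0.759% and 1.10% without it, against 6.36%, 6.15%, 6.28% and 4.06% and 11.1%, 2.02%, 3.85% and 5.62% of CD4+ cells. The ranges did not overlap. Trbv13-2 led 4.40–7.24% of CD8+ and 10.0–17.8% of CD4+ cells (−0.83, SE 0.153, adjusted p = 0.000463), and Trbv3 1.99–6.46% and 6.81–11.9% (−1.41, SE 0.170), both also without overlap. As shares of cells led, Trbv1 (−1.78), Trbv13-3 (−1.51) and Trbv15 (−1.08) were higher in CD4+ cells in 7 of 8 pools each. In CPM each of them was higher in CD8+ cells in 0 of 8 pools.

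Toward CD8+ cells, Trbv17 (2.03, SE 0.336, adjusted p = 0.000162) and Trbv12-1 (1.93, SE 0.322, adjusted p = 0.000172) differed most in this fit. Over 23 alternatives Trbv17 was 1.56–3.14 and Trbv12-1 1.60–2.32. Trbv12-1 led 5.24%, 4.97%, 4.40% and 3.79% of CD8+ cells with PancVAX and 3.26%, 3.65%, 6.84% and 10.3% without it. In CD4+ cells it led 1.82%, 1.23%, 2.62% and 2.03% and, without PancVAX, 1.59%, 0%, 0% and 1.12%, and the ranges did not overlap. Trbv5 (1.80), with 1.62–8.35% against 0–2.73%, and Trbv16 (1.37), with 8.99–19.8% against 0–8.97%, were higher in CD8+ cells in 8 of 8 pools by these shares. In CPM Trbv16 was higher in CD8+ cells in 7 of 8 pools, and in the Anti-CTLA-4 pool it was 129 in CD8+ and 145 in CD4+ cells. Trbv12-2 (1.27) was higher in 7 of 8, and Trbv29 (1.67) and Trbv14 (0.97) in 6 of 8. Trbv17 was higher in 7 of 8. With 1 pool left out, Trbv14 lost its call in 6 of 8 cases (log2 difference 0.66–1.33) and kept it without Isotype Control or PancVAX + Anti-CTLA-4, and the other 12 rows kept theirs. DESeq2 called 10 of 20 Trbv rows, 4 higher in CD8+ and 6 in CD4+ cells, and did not call Trbv14, Trbv16 and Trbv29. CD4+ values rest on few cells: Trbv17 led 8 and Trbv29 led 12 of 1071 CD4+ cells with a leading segment, against 301 and 365 of 8164 CD8+ cells.

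Contigs were read from a separate library of the Percoll cells. Trbv31 was 0.901% of CD8+ and 4.68% of CD4+ contig cells (mean of 8 libraries), Trbv3 3.59% and 9.48%, Trbv12-1 4.41% and 1.42%, and Trbv5 13.9% and 5.11%. Trbv3, Trbv12-1 and Trbv5 differed in 1 direction in 8 of 8 libraries, and Trbv31 in 7 of 8. Trbv17, at 2.98% and 1.19%, and Trbv29, at 2.83% and 1.49%, were higher in CD8+ cells in 5 of 8 libraries, and the RNA call of Trbv29 was lost in Percoll libraries alone (1.31, adjusted p = 0.134). That of Trbv14 was lost in whole-tumor libraries alone (0.33, adjusted p = 0.661) against 1.62 in Percoll libraries. Of the receptor complex genes, *Cd8a*, *Cd8b1* and *Cd4* defined the subsets, and *Cd247* (−0.82), the ζ chain, and *Lcp2* (−0.64), an adaptor, were higher in CD4+ cells. Of 27 Trav rows tested, 1 was higher in CD8+ and 11 in CD4+ cells, against 14.9% of all genes called in either direction.

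**Figure D4:**
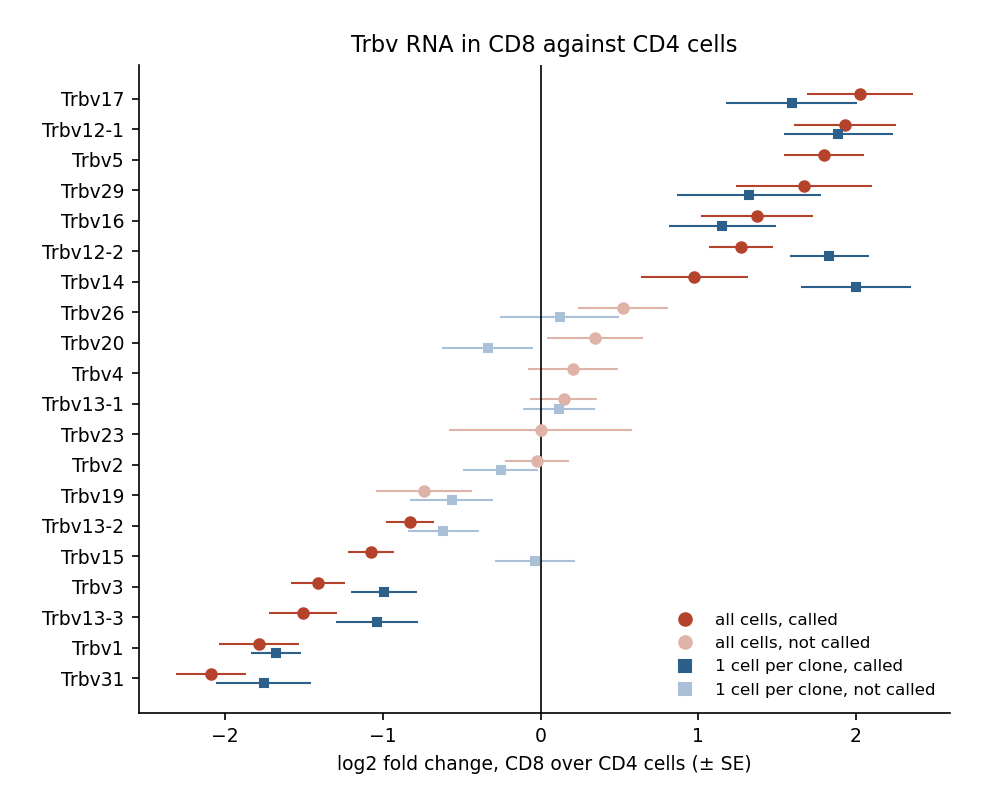
Log2 fold change of each Trbv row in CD8+ over CD4+ cells (x axis, ± SE) by edgeR, with the pool as a block, for all cells (red circles) and for Percoll cells with each clone kept as 1 cell (blue squares). Dark marks passed the threshold and pale marks did not. With all cells 13 rows passed, and with 1 cell per clone 10, and Trbv15 was −1.08 and −0.04.

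Single clones held much of some segments. Among 125 pairs of segment and library with at least 20 cells, the largest clone outnumbered all other cells of the segment in 5. The 7937 contig cells fell into 4048 clones, and 81 clones of over 10 cells held 23.3% of the cells. The largest clone of a library held from 1.96% of its cells (PancVAX, exact binomial 95% interval 1.12–3.16%) to 9.57% (Anti-CTLA-4, 7.77–11.6%). Such intervals cover counting error only. The TRBV20 clone of PancVAX + Anti-PD-1 + Anti-CTLA-4 was 80.1% of that library's TRBV20 cells. With it Trbv20 took 9.74% of the library, against 1.94–4.10% in the other libraries. Without it Trbv20 took 2.10%, against 1.22–2.93% in the other libraries without their own largest TRBV20 clone. The TRBV13-1 clone printed above was 42.4% of the TRBV13-1 cells of the Anti-PD-1 library. Without it Trbv13-1 fell from 19.2% to 12.0% there, against 5.31–9.30% in the other libraries without their own largest TRBV13-1 clone.

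The spread between libraries was mostly smaller by clones than by cells. In 18 of 21 segments the SD over 8 libraries was smaller when each clone was counted once than when each cell was, with a median ratio of the SDs of 0.632. Trbv12-1 had 3.79% ± 1.53 of cells but 3.86% ± 0.393 of clones, and Trbv13-1 10.5% ± 3.83 and 9.88% ± 1.12. For Trbv31, Trbv13-2 and Trbv30 the SD was larger by clones. The effective number of segments, the number that would give the same evenness if used equally, was 17.6, 17.8, 17.9 and 16.7 by contig cells with PancVAX and 13.8, 14.6, 14.2 and 13.6 without it, which did not overlap. By RNA cells it was 16.2–18.0 and 14.8–16.7 in Percoll and 16.3–18.3 and 14.7–17.4 in whole-tumor libraries, and by clones 17.4–18.6 and 15.9–18.0, and all of these overlapped.

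The PancVAX differences were also computed with expanded clones reduced to 1 cell each. With each clone of the Percoll libraries kept as 1 cell, edgeR called 287 of 8613 genes (3.33%) and 2 of 20 Trbv rows: Trbv15 rose (1.11, SE 0.198, adjusted p = 0.00632) and Trbv1 fell (−0.74, SE 0.167, adjusted p = 0.0258). Trbv16 turned to 0.16 (SE 0.219), and by clones it held 5.68–9.20% with PancVAX and 5.58–8.84% without it. Trbv5 was −0.52 (SE 0.270, adjusted p = 0.322), yet its share of clones stayed without overlap, at 6.80%, 5.17%, 4.92% and 6.04% with PancVAX and 9.24%, 7.29%, 10.7% and 9.44% without it. Trbv29 was 0.84 (SE 0.233, adjusted p = 0.0599) and Trbv12-2 0.59 (SE 0.241, adjusted p = 0.201), and Trbv14 (0.27, adjusted p = 0.576) and Trbv31 (0.26, adjusted p = 0.655) were also not called. All contig cells of the same libraries, clone members included, gave 5 calls among 21 Trbv rows (7.21% of all genes), with Trbv5 at −0.98, Trbv15 at 1.74, Trbv29 at 1.86, Trbv14 at 1.01 and Trbv31 at 0.93, while Trbv16 was −0.77 (adjusted p = 0.0711). Keeping 1 cell per clone also leaves fewer cells.

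CD8+ and CD4+ cells were compared in the same way. All contig cells gave 12 calls among 19 Trbv rows (13.3% of all genes). With 1 cell per clone, edgeR called 824 of 5487 genes (15%) and 10 of 17 Trbv rows. Trbv14 (2.00), Trbv12-1 (1.89), Trbv12-2 (1.83), Trbv17 (1.59), Trbv29 (1.32) and Trbv16 (1.15) were higher in CD8+ cells, and Trbv31 (−1.75), Trbv1 (−1.68), Trbv13-3 (−1.04) and Trbv3 (−0.99) in CD4+ cells. Trbv15 went from −0.86 with all contig cells to −0.04 (SE 0.255, adjusted p = 0.952), and Trbv13-2 from −0.81 to −0.62 (SE 0.223, adjusted p = 0.0539). The Trbv5 row, at 1.84 with all contig cells, did not pass the filter on low counts.

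A few joints were shared between libraries. Of 3981 distinct TRBV and CDR3 pairs, 54 were found in at least 2 libraries (470 cells), and at most in 4. The TRBV16 joint with TRBJ2-7 printed above was found in 37 cells of the Anti-PD-1, Isotype Control and PancVAX libraries besides its 71. The TRBV13-1 joint was found in 14 cells of PancVAX + Anti-PD-1. The other joints printed above were each in 1 library.

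Most TRBV5 cells carried the same alpha chain J segment, TRAJ7. The alpha chain was examined after the clones had been seen. Of 6511 cells with both chains, 22.4% had TRAJ7, and it was found in 71.4% of TRBV5 cells (594 of 832), 54.8% of Trbv20 cells and 46.2% of Trbv16 cells, and in at most 20.3% of the cells of any other segment. These shares varied between libraries, from 30.1% to 85.7% for TRBV5, 13.3% to 83.2% for Trbv20 and 13.8% to 86.4% for Trbv16, and Trbv12-1 reached 61.9% in 1 library. The printed TRBV20 clone gave 104 of the 172 Trbv20 cells with TRAJ7. Over all cells other than TRBV5 it was 15.3%. With each clone counted once it was 39.7% of 262 TRBV5 clones, 23.4% of Trbv20 clones, 16.4% of Trbv2 clones, 14.1% of Trbv3 clones, 13.7% of Trbv16 clones and 7.64% of the clones of segments other than TRBV5. Among TRBV5 cells with TRAJ7, TRAV7D-2 was the most frequent alpha V segment (281 cells, 47.3%), of 28 in all, and the 4 printed clones with this segment gave 66, 32, 31 and 14 of these cells. All 5 printed TRBV5 clones had TRAJ7, as did the printed TRBV20 clone and the TRBV16 clone with TRBJ2-7.

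TRBV5 cells were then split by TRAJ7. Those with TRAJ7 were 7.78%, 7.36%, 2.41% and 2.01% of cells with both chains in the libraries with the vaccine and 12.9%, 9.77%, 24.2% and 12.0% in those without (means 4.89% ± 3.10 and 14.7% ± 6.45, SD, n = 4 each). The ranges did not overlap. TRBV5 cells with another TRAJ were 2.88%, 3.77%, 2.70% and 4.67% with the vaccine and 2.16%, 2.73%, 4.20% and 4.30% without it, and these overlapped (3.50% ± 0.908 and 3.35% ± 1.07). Counted by clones, TRBV5 with TRAJ7 was 2.18% ± 1.38 with PancVAX and 4.88% ± 1.80 without, and the ranges overlapped. Among cells of the other segments TRAJ7 was 7.45–15.4% with PancVAX and 15.8–28.5% without it, and among their clones 5.72–6.62% and 8.91–12.2%, both without overlap. These shares were chosen after they were seen and carry no test.

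The CCN GGN pair of the printed joints was also counted over all clones with both chains, in frame from the first CDR3 base and on the coding strand. It was present in 39.4% of 104 TRBV5 clones with TRAJ7 (library range 0–64.3%, the 5 printed clones included) and in 10.1% of 158 TRBV5 clones with another TRAJ. In other segments it was present in 11.2% of 241 clones with TRAJ7 and in 7.31% of 2912 clones with another TRAJ, and in 8.70% of all 3415 clones. The pair was picked from the printed joints, so that these shares are a description.

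**Figure D5:**
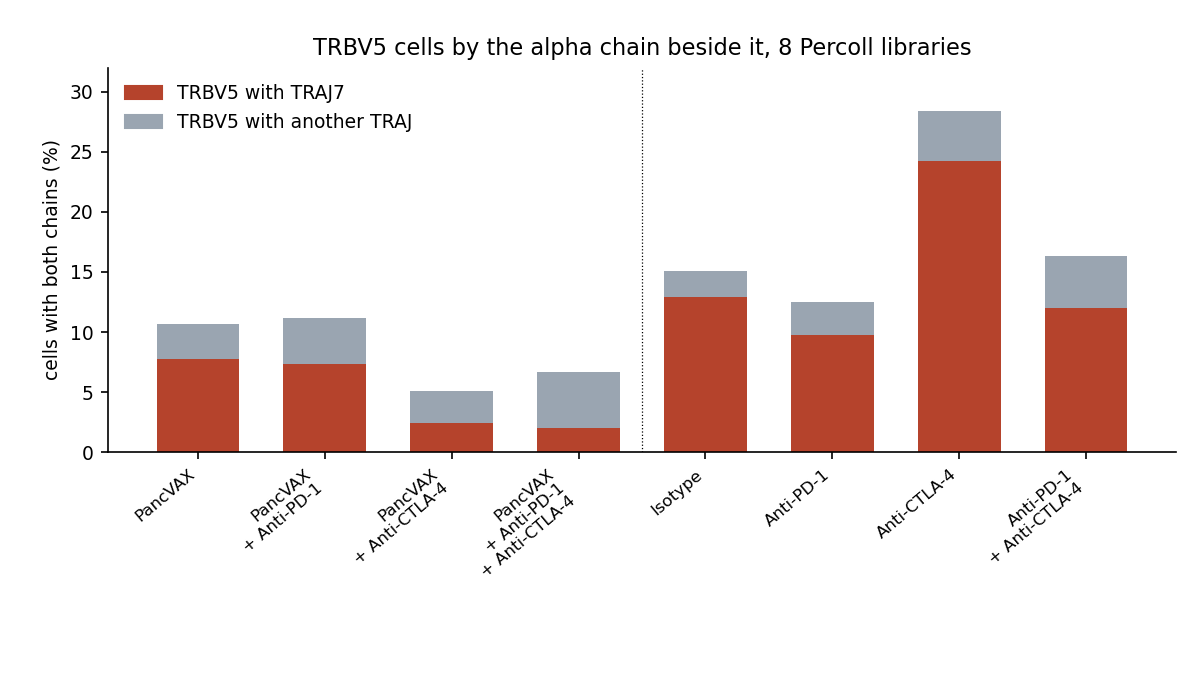
Share of cells with both chains (y axis, %) that were TRBV5 with TRAJ7 (red) or TRBV5 with another TRAJ (gray) in 8 Percoll libraries, with PancVAX to the left of the dotted line and without it to the right. The red part was 2.01–7.78% with the vaccine and 9.77–24.2% without it, and the gray part 2.16–4.67% over all libraries.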

How the data were processed

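Per the labels and the study's methods, libraries were made with a 5′ single-cell kit with enrichment of receptor transcripts, and the authors made the deposited counts, raw UMIs per gene and barcode, and the contigs with Cell Ranger 4.0.0. The submitters' processing notes name mm10 and Seurat. Cells with 200–3000 genes, 1000–10000 UMIs, under 10% mitochondrial UMIs, no hemoglobin UMI and a *Cd3e* UMI were kept. Doublets were not called. UMIs of all genes were summed by pool, or by pool and subset (sums under 10 cells left out), and tested with the edgeR 4.0.16 quasi-likelihood test (TMM, R 4.3.3, limma 3.58.1), two-sided, with Benjamini-Hochberg adjustment, at 0.05 and a log2 change over 0.5. The vaccine and both antibodies were terms of 1 fit, and for CD8+ against CD4+ cells, which come from the same pool, the pool was a block. The 8 segments with the highest mean share, every segment called in any fit, the 4 that differed most between RNA and contigs, and the largest clones were described. Members and lists were chosen with earlier results of these data known. Alternatives included DESeq2 1.42.0, other filters, 1 cell per clone and each pool left out. The scripts were tested on simulated data. Shares and permutation tests were computed in Python 3.11.15 with scipy 1.17.1, pandas 2.3.3 and numpy 2.4.6. Pools are 1 per treatment. The p-values of the fit of vaccine and antibodies measure the spread left between pools after these additive terms. In that spread, pool variation and joint effects of the agents cannot be told apart. The p-values for CD8+ against CD4+ cells measure the spread over pools of the difference within a pool.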

Additional observations from a re-analysis of the deposited data

Results flagged for a closer look

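In 8 of 105 groups (7.62%), 1 value stood apart from the others by Dixon's test, where chance gives about 1 in 20 for independent groups. The groups were of 4 pools or libraries, except 1 of 8 libraries. They reuse the same pools across measures and segments and are not independent. By RNA, Trbv13-2 led 6.21% of cells in the PancVAX pool against 7.89–8.23% in the other pools with the vaccine, and Trbv31 led 3.07% in the Isotype Control pool against 1.42–1.67% in the others without it. By contig cells, Trbv1 took 5.51% in PancVAX against 3.01–3.24%, Trbv29 6.37% in PancVAX + Anti-CTLA-4 against 3.06–3.48%, and Trbv26 3.47% in Anti-CTLA-4 against 7.07–7.74%. By clones, Anti-PD-1 was high in Trbv12-1 (4.52% against 3.61–3.72%) and in Trbv12-2 (5.28% against 3.61–3.72%), and PancVAX + Anti-CTLA-4 was low in Trbv17 (2.84% against 3.67–3.80%).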

How the results depend on the processing

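The count of Trbv rows called for PancVAX was 6 and stayed within 1.5 times of that in 17 of 25 alternatives. It was 2 of 21 in Percoll libraries only (4.40% of all genes), 3 of 22 with no upper limit on genes and UMIs (2.13%), 2 of 20 with 1 cell per clone (3.33%), 3 of 20 with 1 cell per clone and the sum of Trbv UMIs as library size (3.61%), and 0 of 13 in CD4+ cells (1.4%), which rest on fewer cells. With 1 pool left out it was 1–5, with 1 of 21 without Anti-PD-1 + Anti-CTLA-4, near the 4.53% of all genes, 2 of 22 without Isotype Control (4.48%) and 2 of 21 without PancVAX + Anti-CTLA-4 (3.88%). Trbv16 was −0.86, −0.77 in all contig cells of the Percoll libraries, 0.16 in these with 1 cell per clone and 0.063 with the Trbv library size as well. With the 16 libraries as units and the preparation as a covariate, 7 of 20 rows were called (3 higher, 4 lower), against 9.81% of all genes. This fit counts both libraries of a pool as independent, although they may hold the same mice, so that its p-values do not measure the spread between pools. For CD8+ against CD4+ cells the count was 13, 10–15 in all 23 alternatives, 12–15 with 1 pool left out and 11 without the pool as a block. Trbv15 was −1.08, −0.86 in all contig cells of the Percoll libraries and 0.097 in these with 1 cell per clone and the Trbv library size. Trbv16 (1.80, adjusted p = 0.0539), Trbv29 (1.63, adjusted p = 0.0984) and Trbv14 (1.37, adjusted p = 0.0929) lost their call by DESeq2. Agreement of RNA with contigs was 95.2%, 96.6% with at least 2 UMIs of the leading row, 98.1% with TRBV10 as Trbv4 and the joined name as Trbv13-2, and 95.1–95.5% with 1 library left out. For anti-PD-1 and anti-CTLA-4 the count was 0 in 9 alternatives each. The cause of these changes was not tested. Trbv5 levels are limited by the row's low UMI counts and CD4+ levels by the number of cells.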
